A study of Homo sapiens with 9 samples.

Results

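The genes described here are 9 that encode the cellular sensors of double-stranded RNA and their adaptors: DDX58, IFIH1, DHX58, TLR3, MAVS, EIF2AK2, ADAR, TRIM25 and IRF3. They were taken by gene name from the deposited table of 58735 genes, each name matched 1 gene, and all 9 passed the filter on low counts that left 17023 genes for testing. The samples were OVCAR3 cells, an established human line from an ovarian carcinoma, taken after 72 h in culture, in a study of GPX3, which encodes a secreted glutathione peroxidase. A scramble hairpin served as the control (genotype given as WT), and shRNA#76 and shRNA#78 (sh76 and sh78 below; genotype given as GPX3 knock-down) were directed at GPX3, with 3 replicates in each of the 3 groups. Every group, the control included, carried a short hairpin RNA, so no library without a hairpin was available for comparison here, and all libraries came from a single cell line. Hairpins mentioned below without a name are sh76 and sh78. The labels do not say whether replicates came from separate transductions, so the p-values measure only the spread between these samples, which may be technical.

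Long double-stranded RNA is unusual in the cytosol of a healthy cell, and vertebrate cells read it as a sign of viral infection. In the cytosol RIG-I (encoded by DDX58) binds short duplexes with a triphosphate end and MDA5 (encoded by IFIH1) binds long duplexes. Each then joins MAVS on the mitochondrial surface, and the kinase TBK1 activates the transcription factor IRF3, which switches on interferon genes. A parallel set of proteins acts on the RNA or on translation: the kinase PKR (encoded by EIF2AK2) phosphorylates eIF2 and slows protein synthesis, and ADAR converts adenosine to inosine within duplexes, which keeps the cell's own RNA from being sensed. Several of these genes are themselves induced by interferon.

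In outline, DDX58 and IFIH1 rose with sh78, to 1.5 and 1.52 times the scramble level, while ADAR fell to 0.75 of it. With sh76 none of the 9 was called by edgeR without a block (0 genes), while a fit blocked on replicate number called DDX58 and ADAR higher. ADAR lay above scramble in all 3 sh76 replicates, the opposite side from sh78. The other 6 members were called in no comparison.

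The libraries held 14652965 to 21327562 counts, so that 1 CPM (a count scaled to library size, with TMM factors between libraries) stood for 14.5 to 21 counts. GPX3 itself was at 109 to 173 CPM with scramble, 55.2 to 56.8 CPM with sh76 and 28.3 to 35.3 CPM with sh78. The targeted mRNA was thus lower in all 6 libraries with a hairpin against GPX3. All 10 markers of ovarian carcinoma epithelium exceeded 1 CPM in every library, and their summed level was 13384 to 14230 CPM with scramble, 12604 to 13746 CPM with sh76 and 10963 to 11722 CPM with sh78. The sh78 sums lay wholly below those of scramble, and KRT8, the largest part of the sum, had a mean of 5562 CPM with scramble and 3878 CPM with sh78. Of 6 immune cell markers and 3 markers of plasmacytoid dendritic cells, 0 exceeded 1 CPM in every library, and CLEC4C had no count in any library. Among 5 fibroblast markers 2 exceeded 1 CPM throughout, and their summed level was 26.9 to 38.6 CPM with scramble, 30.5 to 54.7 CPM with sh76 and 34.6 to 46.7 CPM with sh78. The 4 endothelial markers summed to 17 to 19.9 CPM with scramble, 18.1 to 24.2 CPM with sh76 and 23.1 to 31.9 CPM with sh78. Among them mean KDR was 9.39 CPM with scramble and 18.8 CPM with sh78, mean VWF was 8.25 and 7.95 CPM, and PECAM1 and CDH5 had group means under 1 CPM. The part of these markers in the results below was not tested.

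The promoters of IFIH1 and DDX58 are shown because these 2 genes rose together, and that of ADAR because it moved the other way. That of EIF2AK2 is shown because, like IFIH1 and unlike DDX58, it carries a match to the interferon motif as searched below, with a smaller difference in level. TLR3, which also has a match, is not shown. Each line gives 250 bases before the RefSeq transcription start and 30 bases from it, 5′ to 3′ on the gene's own strand, in the GRCh38.p14 build. Capitals mark matches to the interferon-stimulated response element, searched as GAAA, any 2 bases and GAAA on both strands of the 300-base windows of the RefSeq promoter table. The IFIH1 stretch is chr2:162318655-162318934, that of DDX58 (listed there as RIGI) chr9:32526167-32526446, that of EIF2AK2 chr2:37156951-37157230, and that of ADAR (its most upstream listed start) chr1:154627968-154628247, all on the minus strand.
IFIH1: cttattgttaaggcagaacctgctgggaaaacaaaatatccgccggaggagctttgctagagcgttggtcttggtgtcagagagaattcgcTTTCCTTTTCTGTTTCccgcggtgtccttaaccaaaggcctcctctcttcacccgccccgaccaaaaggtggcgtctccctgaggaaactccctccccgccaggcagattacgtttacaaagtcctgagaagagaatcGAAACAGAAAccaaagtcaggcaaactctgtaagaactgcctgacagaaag
DDX58: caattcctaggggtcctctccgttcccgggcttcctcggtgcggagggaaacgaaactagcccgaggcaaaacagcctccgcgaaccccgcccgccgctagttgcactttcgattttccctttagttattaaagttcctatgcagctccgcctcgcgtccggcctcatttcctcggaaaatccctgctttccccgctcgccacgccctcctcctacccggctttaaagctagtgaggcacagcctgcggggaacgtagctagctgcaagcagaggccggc
EIF2AK2: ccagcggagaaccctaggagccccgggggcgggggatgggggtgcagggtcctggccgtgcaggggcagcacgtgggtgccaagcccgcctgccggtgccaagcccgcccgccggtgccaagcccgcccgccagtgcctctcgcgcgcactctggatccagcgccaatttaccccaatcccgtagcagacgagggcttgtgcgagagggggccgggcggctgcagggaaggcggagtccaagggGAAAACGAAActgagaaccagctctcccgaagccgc
ADAR: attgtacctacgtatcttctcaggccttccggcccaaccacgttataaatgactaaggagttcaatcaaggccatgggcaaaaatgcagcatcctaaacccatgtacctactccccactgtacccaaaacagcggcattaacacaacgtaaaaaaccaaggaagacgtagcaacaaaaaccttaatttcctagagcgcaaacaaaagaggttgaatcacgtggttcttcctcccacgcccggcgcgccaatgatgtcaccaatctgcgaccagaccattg

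IFIH1 had 3 matches. Of these, 2 overlap each other and begin 159 and 153 bases before the start, and the third, GAAACAGAAA, begins 21 bases before it. EIF2AK2 had 1 match, GAAAACGAAA, which begins 6 bases before the start, and TLR3 had 1, which begins 4 bases before it. The windows of DDX58, MAVS, TRIM25 and the 3 listed for ADAR held no match to these letters, and the table lists no window for DHX58 or IRF3. The DDX58 stretch does hold gaaacgaaa, where 1 base separates the GAAA copies, and the TRIM25 window holds the same letters on the other strand. The search passes over that spacing, so the lack of a match does not show that these promoters lack such an element. Of all 27305 genes listed, 4.38% had a window with a match (3.57% of 35116 windows), and 3 of the 7 members with a window did. The gamma-activated site, searched as TTCNNNGAA, was found in TLR3 alone among the 7, and in 9.38% of all genes listed (7.66% of windows). A match is a description of the sequence and does not show that a factor binds there.

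At the level of transcripts per length, the members spanned a wide range in the scramble control. By the deposited FPKM (fragments scaled to transcript length and library depth), ADAR was highest at 41.5 ± 1.85 (SD, n = 3), above 93.2% of the 13709 protein-coding genes tested. TRIM25 followed at 17.2 ± 0.669 FPKM. EIF2AK2 (9.43 ± 0.347), MAVS (9.22 ± 0.639) and IRF3 (8.02 ± 0.793) lay close together, and the values of neighbours in that order overlapped between replicates. DDX58 was at 4.26 ± 0.587 FPKM, near the middle of the coding genes. IFIH1 (1.46 ± 0.097), TLR3 (1.23 ± 0.129) and DHX58 (1.2 ± 0.154) were the lowest, and TLR3 and DHX58 did not differ beyond their spread. The FPKM of ADAR was 2.41 times that of TRIM25, the next in order, and above that of every receptor. The order was the same with sh76, and with sh78 it differed only in that DHX58 and TLR3, which overlap, changed places.

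Sensors of the RIG-I family came first in the comparison. Values from here on are CPM per library, in the order of replicates 1, 2 and 3. DDX58 (ENSG00000107201, chromosome 9, 32455705 to 32526324, minus strand, GRCh38) had 20.4, 20 and 15.6 CPM with scramble, 24.7, 24 and 21 CPM with sh76, and 29.5, 28.8 and 25.8 CPM with sh78. No values overlapped between any of the 3 groups, which stood in the order scramble, sh76, sh78, and replicate 3 was the lowest of each group. DDX58 thus rose with sh78 by 0.59 on the log2 scale (SE 0.12, edgeR adjusted p 0.0106). Leaving out scramble replicate 3 ended that call (log2 fold change 0.47, edgeR adjusted p 0.0524), and the other 8 fits without 1 library kept it. With sh76 the log2 fold change was 0.32 (95% interval 0.06 to 0.57, edgeR adjusted p 0.173), not called, while a fit blocked on replicate number did call it (edgeR adjusted p 0.00406). The direct difference of sh78 from sh76 was 0.27 (interval 0.02 to 0.52, edgeR adjusted p 0.261), again called only with the block (edgeR adjusted p 0.0139). In bulk RNA, a rise in every cell and a rise in a fraction of the cells cannot be told apart.

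IFIH1 (ENSG00000115267, chromosome 2, 162267079 to 162318703, minus strand) followed the same order at a lower level. It had 6.94, 7.8 and 7.75 CPM with scramble, 8.7, 9.74 and 9.59 CPM with sh76, and 12.3, 11.7 and 10.1 CPM with sh78. These rest on 108 to 228 counts per library, and again no values overlapped between groups. The rise with sh78 was 0.60 on the log2 scale (SE 0.14, edgeR adjusted p 0.0219) and was seen in 3 of 3 same-numbered pairs (0.81, 0.58 and 0.38). That call depended on single libraries: it was lost without scramble replicate 1 (edgeR adjusted p 0.0657), 2 (0.0647) or 3 (0.0599) and without sh78 replicate 1 (0.0898) or 2 (0.0783), while the log2 fold change stayed between 0.54 and 0.67 over the 9 such fits. With sh76 it was 0.32 (interval 0.03 to 0.61, edgeR adjusted p 0.241), and it was not called with the block either (edgeR adjusted p 0.0721). The difference between the hairpins was 0.28 (interval −0.00 to 0.57, edgeR adjusted p 0.313). Across the 9 libraries the log2 CPM of DDX58 and IFIH1 had a Pearson r of 0.83, a description of libraries that share their groups and their depth.

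DHX58 (ENSG00000108771, chromosome 17, 42101404 to 42112733, minus strand) encodes LGP2, the third helicase of the family, which lacks the caspase recruitment domains through which RIG-I and MDA5 signal. It had 3.99, 5.16 and 4.71 CPM with scramble, 5.12, 5.72 and 3.96 CPM with sh76 and 4.26, 4.68 and 6.3 CPM with sh78. The 3 groups overlapped. It differed from scramble by 0.09 with sh76 and 0.13 with sh78 on the log2 scale, neither of them called (edgeR adjusted p 0.879 and 0.823). With 62 to 118 counts per library the intervals were wide, −0.35 to 0.54 and −0.32 to 0.58. Both ended just below the 0.59 of DDX58 with sh78, so a rise almost that large lay within them.

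**Figure D1:**
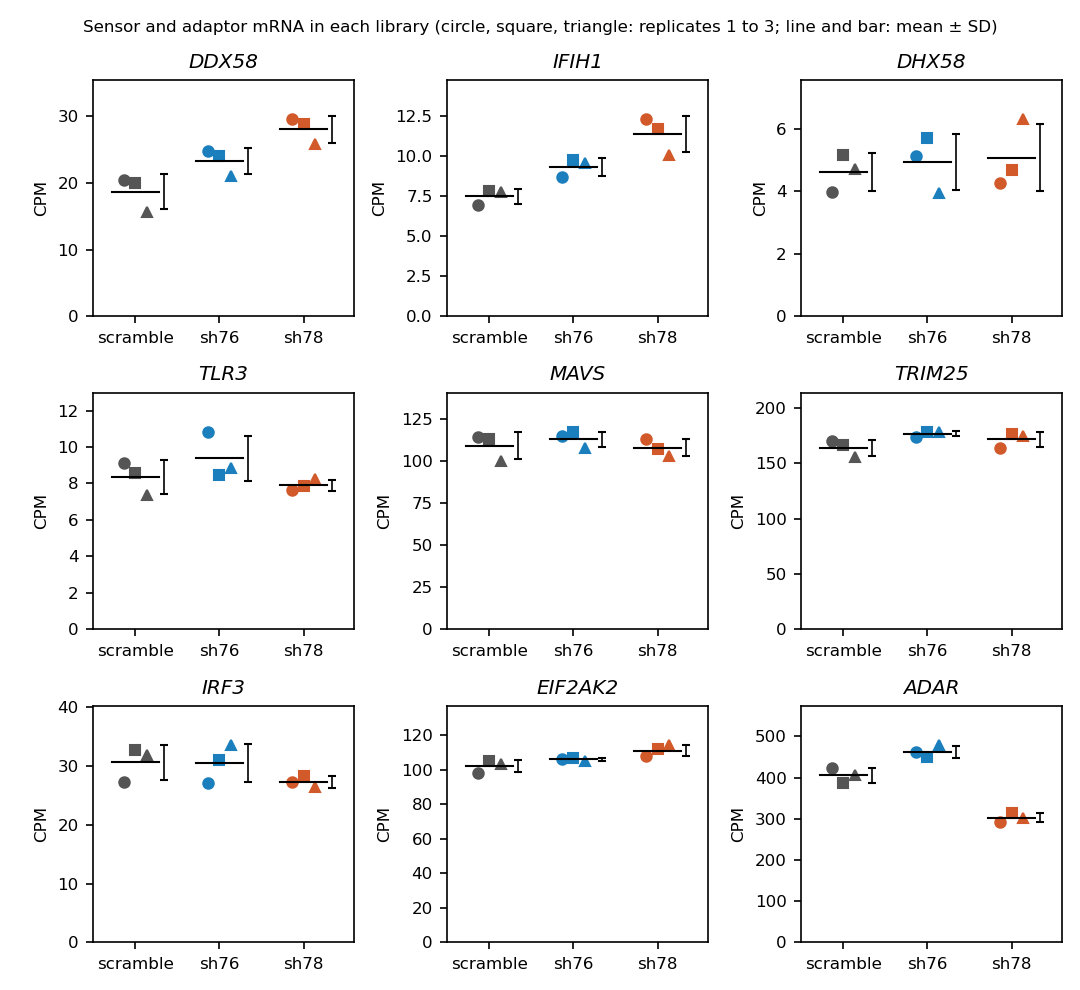
CPM (TMM-scaled, axes from 0) of the 9 members in each library, with replicates 1 to 3 as circle, square and triangle, a line at the group mean and a bar of ± 1 SD. DDX58 and IFIH1 step up from scramble to sh76 to sh78 with no overlap, ADAR lies at 293 to 314 CPM with sh78 against 386 to 422 CPM with scramble, and the remaining members stay close to their scramble level.

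TLR3 (ENSG00000164342, chromosome 4, 186069152 to 186088069, plus strand) senses duplexes in endosomes rather than in the cytosol. It had 9.13, 8.57 and 7.35 CPM with scramble, 10.8, 8.48 and 8.83 CPM with sh76, and 7.65, 7.84 and 8.25 CPM with sh78. Neither hairpin group separated from scramble, with log2 fold changes of 0.16 for sh76 and −0.08 for sh78 (edgeR adjusted p 0.625 and 0.86). All 3 sh78 values lay below all 3 sh76 values, but that difference of −0.24 was not called (interval −0.56 to 0.08, edgeR adjusted p 0.473).

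MAVS, TRIM25 and IRF3 act next to or below the receptors, and none of them was called. MAVS (ENSG00000088888, chromosome 20, 3846799 to 3876123, plus strand) ranged from 99.9 to 117 CPM over all 9 libraries, and its groups overlapped in every comparison. Its log2 fold changes were 0.06 with sh76 and −0.02 with sh78, with intervals of −0.09 to 0.21 and −0.17 to 0.13. TRIM25 (ENSG00000121060, chromosome 17, 56836387 to 56914080, minus strand), a ubiquitin ligase that modifies RIG-I, had 170, 167 and 156 CPM with scramble, 174, 178 and 178 CPM with sh76 and 164, 177 and 175 CPM with sh78. The sh76 values were all above scramble, but the difference of 0.10 on the log2 scale was not called (interval −0.02 to 0.23, edgeR adjusted p 0.396). IRF3 (ENSG00000126456, chromosome 19, 49659569 to 49665875, minus strand) had 27.2, 32.7 and 31.9 CPM with scramble, 27.1, 31.1 and 33.5 CPM with sh76, and 27.3, 28.3 and 26.4 CPM with sh78. Its groups overlapped, and it differed from scramble by −0.00 with sh76 and −0.16 with sh78 on the log2 scale, neither called (edgeR adjusted p 0.997 and 0.47). IRF3 shares 734 exonic bases, 19.3% of its own, with BCL2L12 on the opposite strand. The libraries carry no strand, so how the counts were divided between these genes cannot be told from the table.

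EIF2AK2 (ENSG00000055332, chromosome 2, 37099210 to 37157065, minus strand), the gene of PKR, varied little between replicates. It had 97.9, 105 and 103 CPM with scramble, 106, 107 and 105 CPM with sh76, and 108, 112 and 114 CPM with sh78. All 3 sh78 libraries lay above all scramble libraries, although the log2 fold change of 0.13 was not called (interval −0.00 to 0.25, edgeR adjusted p 0.296). Its upper bound was below the lower bound of 0.33 for DDX58 and of 0.31 for IFIH1, and the difference between the genes was not tested. With sh76 the log2 fold change was 0.06 (edgeR adjusted p 0.694).

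ADAR (ENSG00000160710, chromosome 1, 154582057 to 154628013, minus strand) showed the clearest difference of the 9 and the most counts, 4563 to 10022 per library. It had 422, 386 and 406 CPM with scramble, 461, 449 and 478 CPM with sh76, and 293, 314 and 303 CPM with sh78. The 3 groups did not overlap, with sh76 highest and sh78 lowest. With sh78 it fell by 0.42 on the log2 scale (SE 0.06, edgeR adjusted p 0.000991), lower in 3 of 3 same-numbered pairs (−0.52, −0.30 and −0.42). With sh76 the log2 fold change was 0.19 (interval 0.07 to 0.32, edgeR adjusted p 0.0813), which was not called, and the block called it (edgeR adjusted p 0.000609). The direct test of sh78 against sh76 gave −0.61 (SE 0.06, edgeR adjusted p 0.000122), a level with sh78 that was 0.655 of that with sh76. Both calls against sh78 held in all 16 alternatives, with log2 fold changes from −0.45 to −0.39 against scramble and from −0.63 to −0.58 against sh76. Counts per gene do not separate the interferon-inducible long isoform of ADAR from the shorter constitutive one. ADARB1, the second catalytically active deaminase of the family, was lower with sh76 (15.1 ± 2.86 to 9.83 ± 0.891 CPM, log2 fold change −0.62, edgeR adjusted p 0.0477) and was not called with sh78 (12.3 ± 1.83 CPM, −0.29, edgeR adjusted p 0.38). The sh76 call of ADARB1 was lost in 7 of the 9 fits without 1 library (scramble replicate 1 or 2, any sh76 replicate, sh78 replicate 1 or 2), in both limma fits and with only the 2 groups compared.

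**Figure D2:**
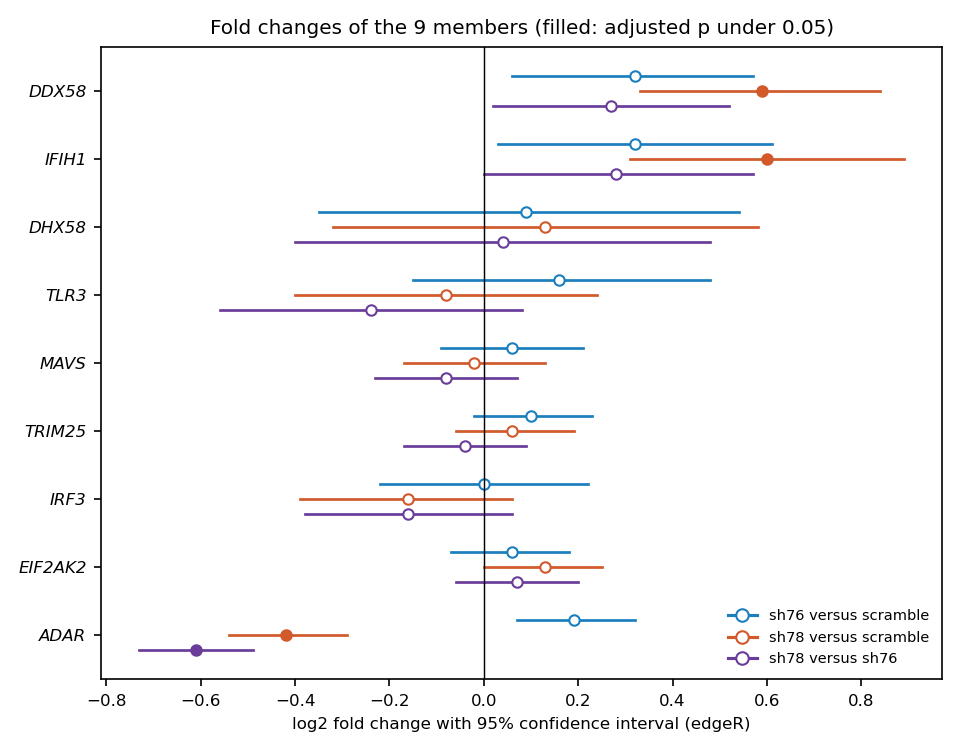
Log2 fold changes (x axis) with 95% confidence intervals from edgeR for the 9 members (y axis) in the 3 comparisons, with filled points for an adjusted p under 0.05. The filled points are DDX58 (0.59), IFIH1 (0.60) and ADAR (−0.42) for sh78 against scramble, and ADAR (−0.61) for sh78 against sh76.

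The count of calls was then read against all genes tested. With sh78, 3 of the 9 members were called, where 4.41% of all genes were. Of them 2 were higher and 1 was lower, against 1.85% and 2.56% of all genes. The block called the same 3, where 9.79% of all genes were called higher and 10.1% lower by it. With sh76, 0 of 9 were called by edgeR and 0 by DESeq2, where edgeR called 3.58% of all genes (1.43% higher and 2.16% lower), and 3 members (DDX58, IFIH1 and ADAR) had an unadjusted p under 0.05, as did 17.4% of all genes. The block called 2 of the 9 with sh76, both higher, where it called 20.4% of all genes, 9.63% of them higher. Between the hairpins 1 of 9 was called, lower with sh78, where 3.7% of all genes were called and 1.72% were lower. The block called 2 there, DDX58 higher and ADAR lower, where it called 9.69% of all genes higher and 8.62% lower, 18.3% in all. The median log2 fold change of the members was 0.10 with sh76 and 0.06 with sh78, beside 0.01 for all genes in each comparison. Both comparisons use the same scramble libraries and are not independent of each other.

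Replicates were also compared for overlap. With sh76, 4 members (DDX58, IFIH1, ADAR and TRIM25) had all 3 values above scramble, a separation that 10.8% of all genes showed, and 0 had all 3 below. With sh78, 3 members (DDX58, IFIH1 and EIF2AK2) lay wholly above scramble and ADAR wholly below, where 10.2% and 11.2% of all genes did. Since same-numbered replicates deviated together, the differences were also taken within them. DDX58 was above the same-numbered scramble library by 0.27, 0.26 and 0.43 with sh76 and by 0.53, 0.52 and 0.72 with sh78 on the log2 CPM scale. IFIH1 was above it by 0.32, 0.32 and 0.30 with sh76, and ADAR by 0.13, 0.22 and 0.24.

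**Figure D3:**
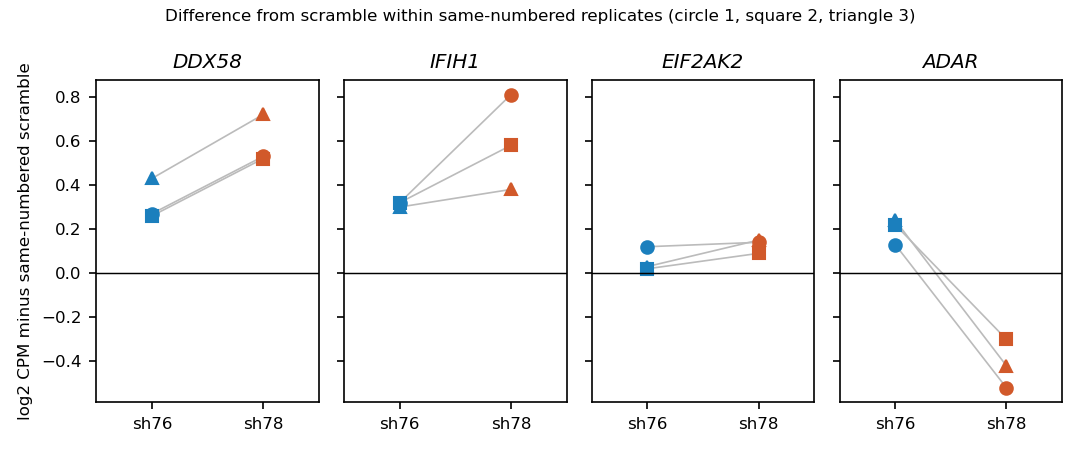
Difference in log2 CPM from the same-numbered scramble library (y axis) for DDX58, IFIH1, EIF2AK2 and ADAR with each hairpin, joined by replicate number. All 6 differences are above 0 for DDX58, IFIH1 and EIF2AK2, and for ADAR the 3 of sh76 (0.13 to 0.24) are above 0 and the 3 of sh78 (−0.52 to −0.30) below it.

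Genes whose levels followed the called members most closely over the 9 libraries were listed by Pearson r of log2 CPM among 13700 other protein-coding genes. For ADAR they were S100A6 (r = 0.975), PERP (0.972) and GNAQ (0.969). S100A6, a calcium-binding protein gene, ran from 274 to 319 CPM with scramble, 383 to 420 CPM with sh76 and 214 to 229 CPM with sh78, the same order of groups as ADAR. For DDX58 they were NPY (0.966), TTYH1 (0.962) and CSTF2T (0.960), and for IFIH1 they were TPM2 (0.986), RTL6 (0.956) and PTPN14 (0.942). None of these 9 genes belongs to the lists below. The values describe likeness over shared libraries, and with 13700 genes compared over 9 points high values are to be found for many genes.

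The rest of the pathway was described through 7 lists, the last of them given with the closing observations. For comparison, edgeR called 3.58% of all genes with sh76, 4.41% with sh78 and 3.7% between the hairpins. The block called 20.4%, 19.9% and 18.3% in the same order. An edgeR unadjusted p under 0.05 was found for 17.4% of all genes with sh76 and 17.5% with sh78. The first list held 18 effectors that bind double-stranded RNA, all tested. With sh78, 2 were called higher and 0 lower. OAS3, an oligoadenylate synthetase, went from 27.7 ± 1.1 CPM with scramble to 37.1 ± 2.58 CPM (SD, n = 3; 0.42 on the log2 scale, edgeR adjusted p 0.0235). OAS2 had 2 to 6 counts per library with scramble and 13 to 21 with sh78 (1.97 on the log2 scale, edgeR adjusted p 0.0421), a fold that rests on very few counts. With sh76, ADARB1 was the only call of the 18, and OAS3 stood at 33.4 ± 3.39 CPM (0.27, edgeR adjusted p 0.149). The 2 calls with sh78 became 0 without any 1 scramble replicate or without sh78 replicate 2 or 3 and in both limma fits, and 1 by DESeq2 or without sh76 replicate 3 or sh78 replicate 1. The block called 3 higher and 3 lower with sh76, and 4 higher with sh78. DDX21 and DHX9, the most abundant per length of those not called without the block, had log2 fold changes of 0.01 and 0.14 with sh78. The block called DHX9 higher with sh78 (edgeR adjusted p 0.0179).

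Among 24 genes of signalling from TLR3 and MAVS, 0 were called with either hairpin by edgeR or by DESeq2. Over all genes edgeR called 3.58% with sh76 and 4.41% with sh78, so 0 of 24 is not far from that share. An unadjusted p under 0.05 was found for 2 of the 24 with each hairpin, beside 17.4% and 17.5% of all genes. The block called 2 higher with sh76, and 1 higher and 1 lower with sh78. The median log2 fold changes were 0.02 and 0.01. TICAM1, the adaptor of TLR3, was at 13.4 ± 1.36 CPM in scramble, 16 ± 2.09 in sh76 and 14.9 ± 0.812 in sh78. In the same order, TBK1 had 21.4 ± 3.15, 22.2 ± 2.88 and 21.4 ± 2.21 CPM. IRF7, a factor related to IRF3 that interferon induces, had 9.08 ± 2.57, 8.69 ± 0.957 and 11.3 ± 1.34 CPM, which for sh78 was a difference of 0.33 that was not called (edgeR adjusted p 0.408). The most abundant of the list per length, TOMM70 and RELA, had log2 fold changes of −0.06 and 0.04 with sh78.

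Of 21 regulators of RIG-I and MDA5, 2 were called with each hairpin, 1 higher and 1 lower. ZC3HAV1, which encodes the zinc-finger antiviral protein and has a short isoform that stimulates RIG-I, was called with both. It had 49.2, 47.8 and 42 CPM with scramble, 58.2, 59.3 and 58.5 CPM with sh76, and 62.1, 61.7 and 58.4 CPM with sh78. Its log2 fold changes were 0.34 (edgeR adjusted p 0.0242) and 0.39 (edgeR adjusted p 0.00916), and both hairpin groups lay above scramble. ITCH, a ubiquitin ligase that marks MAVS for degradation, fell with sh78 and was not called with sh76. It had 127, 118 and 120 CPM with scramble, 127, 114 and 123 CPM with sh76 and 93.2, 89.3 and 101 CPM with sh78. Its log2 fold change was −0.37 against scramble (edgeR adjusted p 0.00731) and −0.36 against sh76 (edgeR adjusted p 0.00959). TRIM65, a ubiquitin ligase of MDA5, was lower with sh76 (39.5 ± 3.29 to 30.2 ± 0.851 CPM, edgeR adjusted p 0.0441). YWHAE and PPP1CA were the most abundant per length without a call, at log2 fold changes of −0.03 and 0.00 with sh78. With sh76 the count of 2 fell to 0 without scramble replicate 2 or 3 or any 1 sh76 replicate and in both limma fits, and to 1 without scramble replicate 1 or sh78 replicate 2, while the block called 2 higher and 6 lower. With sh78 the count was 2 in every fit but that with the block, which called 1 higher and 3 lower. The call of ITCH between the hairpins was lost without sh78 replicate 2.

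Of the interferons listed, 6 were hardly detected, while IFNE passed the filter on low counts and was tested. IFNB1 had at most 1 count in a library, IFNA1, IFNK, IFNL1 and IFNL2 at most 2, and IFNL3 had 0 in all 9, where a count of 0 allows up to 3 counts by counting error. Of the 18 interferon, receptor and signalling genes 12 were tested, and 0 were called with either hairpin by edgeR or DESeq2, while 2 with sh76 and 4 with sh78 had an unadjusted p under 0.05. The block called 1 lower with sh76 and 3 lower with sh78. In the order scramble, sh76 and sh78, JAK1 was at 298 ± 10, 281 ± 13.5 and 292 ± 4.26 CPM and IFNAR1 at 136 ± 18.4, 134 ± 12 and 116 ± 11.7 CPM. STAT2, which carries the signal of the interferon receptor to the nucleus, differed from scramble by −0.01 with sh78 on the log2 scale (edgeR adjusted p 0.983). Like TICAM1, TBK1 and IRF7 above, it was named for its role and not by the rule for named genes.

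Interferon-stimulated targets were tested for 17 of 20 genes. Of these, 6 were called higher and 0 lower with sh78, where 1.85% and 2.56% of all genes were. With sh76, 1 was called higher and 0 lower, beside 1.43% and 2.16% of all genes. The median log2 fold changes were 0.46 with sh78 and 0.29 with sh76, beside 0.01 for all genes. Earlier results of these data were known when this list was chosen, so its direction is not independent evidence. The sh78 count fell to 2 without scramble replicate 2, sh78 replicate 1 or sh78 replicate 3, and it was 4 in both limma fits and 11 with the block. The sh76 count was 0 without scramble replicate 2, sh76 replicate 1 or sh76 replicate 3 and in both limma fits, 2 without scramble replicate 1, without the filter and by DESeq2, and 5 with the block. Of all genes, the block called 9.79% higher with sh78 and 9.63% higher with sh76. With sh78 the changes were 0.86 for IFI44L (8.85 ± 0.883 to 16 ± 0.708 CPM, edgeR adjusted p 0.00155), 0.82 for IFI27 (edgeR adjusted p 0.00829), 0.45 for ISG15 (edgeR adjusted p 0.0142) and 0.88 for MX1 (edgeR adjusted p 0.022). The other 2 called, IFIT1 (0.85) and RSAD2 (1.40, on 13 to 55 counts), fall outside the rule for named genes and were chosen after their values were seen. With sh76 the gene called was PARP9 (104 ± 5.32 to 131 ± 8.14 CPM, 0.34, edgeR adjusted p 0.0178), and ISG15 stood at 20.8 ± 0.778 CPM beside 19.8 ± 0.892 CPM with scramble. Between the hairpins 4 of the 17 were called higher with sh78 and 0 lower, where 1.97% and 1.72% of all genes were. Among the 4 were MX1 (0.99, edgeR adjusted p 0.0133) and IFI44L (0.71, edgeR adjusted p 0.00568). That count of 4 fell to 1 without sh76 replicate 2, sh78 replicate 1 or sh78 replicate 3 and to 2 without sh76 replicate 3, and the block called 6 higher and 1 lower.

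**Figure D4:**
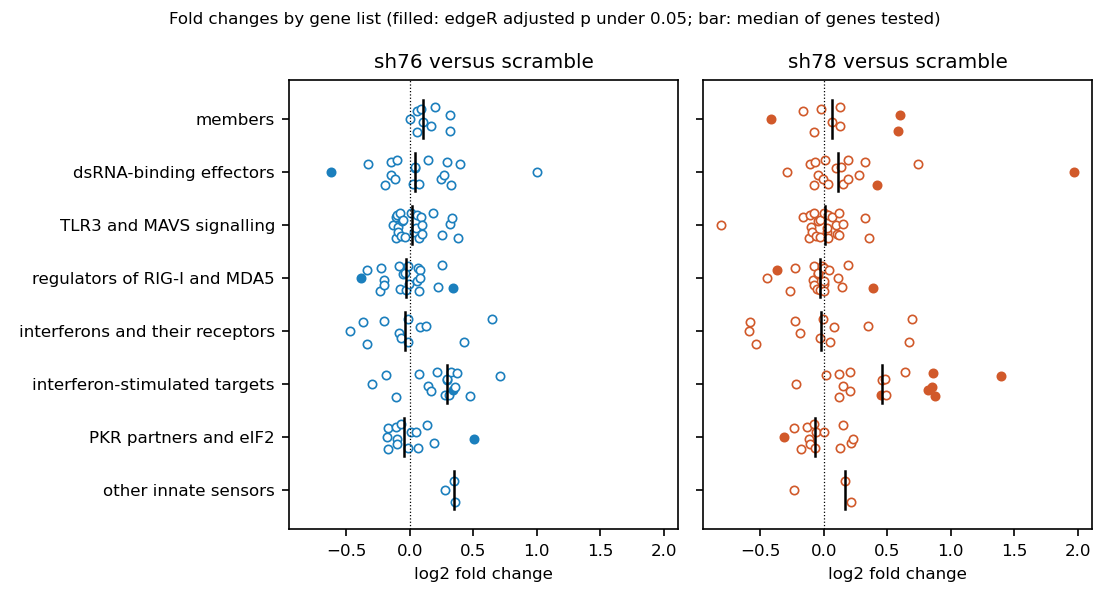
Log2 fold changes against scramble (x axis) for the 9 members and the tested genes of 7 lists (y axis), for sh76 on the left and sh78 on the right, with filled points for an edgeR adjusted p under 0.05 and a bar at each median. The interferon-stimulated targets have 6 filled points to the right of 0 with sh78 and 1 with sh76, and the signalling list has 0 filled points on either side.

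The list described last held 14 partners of PKR and genes of eIF2. With sh76, 1 was called, EIF2AK3, the eIF2 kinase of the endoplasmic reticulum. It was at 20.3, 17.5 and 17.3 CPM with scramble, 29.1, 24.6 and 24.8 CPM with sh76, and 17.4, 17.2 and 18.3 CPM with sh78. It rose by 0.51 with sh76 (edgeR adjusted p 0.0177) and the sh78 libraries lay below those of sh76, by −0.57 on the same scale (edgeR adjusted p 0.00941). The sh76 call of EIF2AK3 was lost without scramble replicate 2 or 3 or sh76 replicate 1. With sh78, 1 was called, EIF2S2, the beta subunit of eIF2, which fell from 291 ± 3.93 to 234 ± 7.12 CPM (log2 fold change −0.31, edgeR adjusted p 0.00687) and was at 259 ± 14.3 CPM with sh76. The block called 3 higher and 1 lower with sh76, and 3 higher and 4 lower with sh78. EIF2S3 and STAU1 were the most abundant per length without a call in the unblocked fit with sh78, at log2 fold changes of 0.22 and −0.12. The block called EIF2S3 higher (edgeR adjusted p 0.00015) and STAU1 lower (edgeR adjusted p 0.045) there.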

How the data were processed

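RNA was sequenced from 9 OVCAR3 samples in 3 groups, from poly-A selected, non-directional libraries per the labels' protocols. The submitters' processing notes name HISAT2 2.0.5, featureCounts 1.5.0-p3 and hg38, without their settings. The authors deposited raw counts per gene (whole numbers with a different total in each library) and FPKM values. All 58735 gene identifiers occur in GENCODE 29, and coordinates were equal for 58724 of them, all 9 members included.

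The count test was that of edgeR 4.0.16 (R 4.3.3): filterByExpr (minimum count 10, minimum total 15), TMM factors, and robust quasi-likelihood F tests with 1 coefficient per group over all 9 samples. P-values were adjusted by the Benjamini-Hochberg method across 17023 genes, and a gene was called under 0.05. Standard errors were taken from the fold change and its F statistic, intervals are 95% intervals, and CPM are TMM-scaled with the SD over 3 replicates. Deposited FPKM served only to compare genes and, in limma 3.58.1, as alternatives on log2(FPKM + 1) and log2(FPKM + 0.1). The other alternatives were no filter, the size factors of DESeq2 1.42.0 within edgeR, its Wald test, only the 2 groups compared, the replicate number as a block, and each library left out. Replicates of a group differed by more than sampling noise (chi-square per degree of freedom 4.9 to 11.07). The replicate numbers come from the labels. Deviations from group means correlated between groups with an r of 0.14 to 0.39 in all 9 same-numbered pairs, so the numbers were read as pairing the samples. In the 18 others r was −0.31 to 0.06. Deviations cancel within a group, so these lower values follow from the same-numbered ones and are not separate evidence. The main fit did not use the pairing, and the fit with the replicate block did.

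Named are the 9 members, GPX3, up to 4 called genes of each list and comparison by adjusted p with up to 2 others of highest FPKM, and the 3 genes most correlated with each called member. The members and lists were chosen with earlier results of these data known. Promoters come from RefSeq (GRCh38.p14), and 7 of the 9 members matched.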

Additional observations from a re-analysis of the deposited data

Results flagged for a closer look

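ADAR was the member called between the 2 hairpins when sh78 was tested directly against sh76 without a block (log2 fold change −0.61, edgeR adjusted p 0.000122, lower in 3 of 3 same-numbered pairs). It lay below scramble with sh78 and above it with sh76, and the sh76 side was called only with the replicate block (edgeR adjusted p 0.000609). DDX58 was higher with sh78 than with sh76 in 3 of 3 same-numbered pairs, and was called there only with the block (edgeR adjusted p 0.0139). With 3 samples in each group, no single sample was examined as an outlier.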

How the results depend on the processing

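Of 432 refits of the 9 members (16 alternatives in 3 comparisons), 411 kept the direction and the call, 6 lost a call (DDX58 and IFIH1 with sh78, each without 1 library), 3 gained one (all with the block) and 12 changed sign, none of them called. The sign changes were all in fits without 1 library: DHX58 (from −0.03 to 0.23 with sh76, −0.05 to 0.24 with sh78 and −0.14 to 0.16 between hairpins), MAVS (−0.01 to 0.09 with sh76 and −0.08 to 0.01 with sh78) and IRF3 (−0.08 to 0.08 with sh76). The replicate block called 3467, 3388 and 3117 genes for sh76, sh78 and sh78 against sh76, in place of 610, 750 and 629, and 2, 3 and 2 of the members in place of 0, 3 and 1. It changed no call of a member beyond DDX58 and ADAR with sh76 and DDX58 between the hairpins. Without the filter 1149, 1212 and 1125 genes were called. Without 1 library the counts ran from 237 to 655 for sh76, from 418 to 810 for sh78 and from 273 to 780 between hairpins, and those of the members from 0 to 0, from 1 to 3 and from 1 to 1. The counts moved by more than 1.5 times without scramble replicate 2 or 3 or sh76 replicate 2 or 3 (sh76), without scramble replicate 2 or 3 or sh78 replicate 2 or 3 (sh78), and without sh76 replicate 2 or 3 or any sh78 replicate (sh78 against sh76). Depth limits DHX58, TLR3 and IFIH1 most.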

Other observations

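Other innate sensors, among them sensors of DNA and single-stranded RNA and toll-like receptors for lipids and proteins, made up the last list. Of its 11 genes, 3 had enough counts to be tested, and 0 were called with either hairpin by edgeR or DESeq2, with 1 (TLR5, with sh76) at an unadjusted p under 0.05. TMEM173, which encodes the DNA-pathway adaptor STING, was at 24.7 ± 5.78 CPM (SD, n = 3) in scramble, 31.4 ± 3.73 in sh76 and 28.7 ± 4.98 in sh78, and the block called it with sh76 (edgeR adjusted p 0.00069) and sh78 (edgeR adjusted p 0.0431). TLR5, a receptor for flagellin, was at 11.5 ± 1.84, 14.8 ± 0.948 and 13 ± 1.28 CPM in the same order, and the block called it with sh76 (edgeR adjusted p 0.0157). CGAS, which makes the messenger that STING binds, had 0 to 5 counts per library, IFI16 had 0 to 12 and TLR8 had 0 to 3. AIM2 and TLR7 had 0 counts in all 9 libraries, which allows up to 3 counts in a library by counting error. The chemokine gene CXCL10, a target of IRF3 and interferon, had 2 counts in each scramble library, 2, 2 and 11 with sh76, and 4, 9 and 4 with sh78, too few to pass the filter.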
